A study of Gallus gallus with 16 samples.

Results

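In chicken macrophage-like HD11 cells, 54 transcripts stood above the untreated level after lipopolysaccharide (LPS) and stood at nearly the same level when procyanidin B1 (PB1) was added to LPS. They were chosen from 5903 curated (NM_) and predicted (XM_) transcripts by their measured group means, after each library was divided by its total, scaled to 1000000 and put on the log2 scale. A transcript was kept where any group averaged at least 10 on that scale (3.32 in log2), where both LPS minus CTR and LPS + PB1 minus CTR were at least 0.8, and where LPS + PB1 minus LPS lay within 0.4 of 0 in either direction. HOX genes were left out, which removed 1 row, HOXB8. The reference table paired 16 of the 54 with a gene symbol, and the other 38 were predicted transcripts with no symbol there, so HOX genes among predicted transcripts could not be recognised. The label of a response that PB1 leaves alone describes the group means only. In LPS + PB1, LPS and CTR the 4 libraries fell into pairs that often differed, as the values below show, and PB1 showed this less clearly.

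HD11 is an established chicken line of macrophage-like cells that were transformed by an avian myelocytomatosis virus. RNA was sequenced from 4 groups with 4 libraries each: LPS + PB1, LPS, PB1 and an untreated control (CTR, phosphate-buffered saline in the study's methods). All cells were seeded about 12 h before the challenge in medium for which the labels name 100 µM SeMC, an agent the control libraries would then share. LPS was given at 100 ng/mL, for 6 h in the labels and for 12 h in the methods text, which gives PB1 at 100 µg/mL for 12 h before LPS. The methods text counts 3 samples a group where the labels give 4, and neither source says that the libraries came from separate cultures, so p-values measure the spread between these libraries. In bulk RNA, fewer cells of a type and less RNA per cell cannot be told apart.

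LPS is a glycolipid that coats Gram-negative bacteria, and macrophages sense it through Toll-like receptor 4. The receptor's adaptor proteins switch on NF-κB, AP-1 and interferon regulatory factors, which drive cytokine genes together with genes for metal storage, redox defence, motility and feedback control. Macrophages withhold zinc and iron from microbes with metallothioneins, zinc exporters, ferritin and heme oxygenase, and several of those genes are members here. Procyanidin B1 is a plant polyphenol, a dimer of flavan-3-ol units, studied for its effect on inflammatory signalling.

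The 16 libraries held 4173989 to 4414942 reads as recovered from the deposited values, so this recovered depth differed little between groups. The paper states a lower average of reads per sample, over more annotated transcripts, and the sources do not explain the difference. Libraries within a group were not equally alike. Over transcripts with at least 20 reads in a pair of libraries, the variance was 1.18 to 7.07 times the sampling variance between replicates 1 and 2 or between replicates 3 and 4. Across those pairs it was 4.74 to 67.0 times the sampling variance, with 62.7 to 67.0 in LPS + PB1, 37.1 to 39.8 in LPS, 4.74 to 12.8 in PB1 and 20.7 to 23.7 in CTR. In PB1 the pairs were less distinct, with 5.46 between replicates 3 and 4, against 5.11 between replicates 1 and 3 and 4.74 between replicates 2 and 3. No label says what the pairs share. Tests are therefore given with 4 libraries a group and, where the call changes, also with each pair averaged to 1 value. The macrophage label was checked as far as named rows allow: 7 of 53 listed macrophage genes had a named row, CYBB was at 0 reads in every library, MRC1 had at most 3, and the lysosomal protease CTSD had a mean normalized signal of 1157 in LPS + PB1, 985 in LPS, 928 in PB1 and 1013 in CTR. Of 62 listed mesenchymal genes 18 had a named row, at widely differing levels. The collagen gene COL1A2 averaged 33910, 38180, 16330 and 43410 in the same order, while MEOX2 had at most 5 reads in any library.

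**Figure D1:**
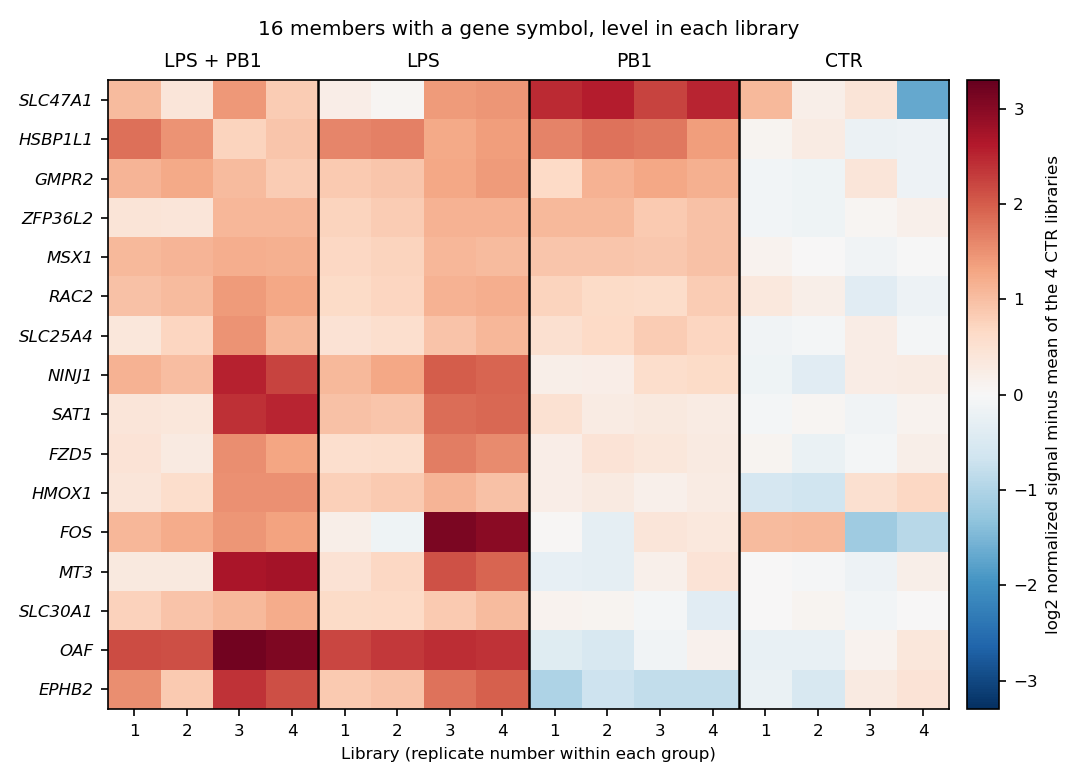
Level of the 16 members with a gene symbol in each of the 16 libraries (columns, by group and replicate number), as log2 normalized signal minus the mean of the 4 CTR libraries, with rows ordered by PB1 minus CTR. The upper 7 rows are red in the PB1 libraries too, EPHB2 at the bottom is blue there, and in many rows replicates 3 and 4 of LPS + PB1 and LPS are darker than replicates 1 and 2.

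Levels are normalized signal, with library totals set to 1000000 after a trimmed-mean scaling, and every difference is on the log2 scale. Relative to the column-sum scale of the choice, this scaling shifted LPS minus CTR and LPS + PB1 minus CTR by 0.047 and PB1 minus CTR by 0.074. On the normalized scale the 54 members had a median LPS minus CTR of 1.12 (range 0.75 to 2.77), a median LPS + PB1 minus CTR of 1.18 (range 0.75 to 3.05) and a median LPS + PB1 minus LPS of 0.12 (range -0.35 to 0.39). These 3 contrasts chose the members and are given as a description only. The choice also favours a rise in LPS + PB1 against PB1, since LPS + PB1 had to stand at least 0.8 above CTR. Where PB1 stood near CTR, a rise over PB1 largely restates that limit. The p-values of that contrast for single members below add no separate support. At the study's limits of adjusted p 0.05 and 1.5-fold, 48 of the 54 would be called higher in LPS against CTR, beside 9.81% of all transcripts called higher and 6.89% lower, and 45 in LPS + PB1 against CTR, beside 8.94% higher and 8.77% lower. The choice leaves no room for a call in LPS + PB1 against LPS, where 7.48% of all transcripts were called higher and 10.2% lower.

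On the column-sum scale, the member closest to a limit was ZFP36L2, with LPS + PB1 minus CTR of 0.8003, and DEPDC7 at 0.794 and PYROXD2 at 0.711 lay just outside. PCNA at 0.785 missed the limit on LPS minus CTR, where the members nearest to it had 0.801 and 0.809. PRPH2 at 0.412 and TXNRD1 at 0.554 lay above the upper limit on LPS + PB1 minus LPS, against 0.394 and 0.385 for the nearest members. RRAD at -0.417 and SFRP1 at -0.565 lay below the lower limit, against -0.350 and -0.318. For the level, RHBDL1 at 3.08 and RAB9B at 2.21 were outside, against 3.36 and 3.37 for the nearest members.

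Metals and heme are handled by 3 of the members with a symbol, MT3, SLC30A1 and HMOX1. MT3 (chr11:2143343-2144384, GRCg7b) encodes a metallothionein, a small cysteine-rich protein that binds zinc and copper. Its level was 185, 187, 964 and 999 in the LPS + PB1 libraries, 205, 237, 639 and 562 in LPS, 123, 121, 165 and 203 in PB1 and 149.9, 143, 132 and 171 in CTR (replicates 1 to 4, an order kept below). Replicates 3 and 4 of both LPS groups stood far above all others, and replicates 1 and 2 of LPS + PB1 stood close to the CTR range. LPS + PB1 minus LPS was -0.24 in replicates 1 and 2 and 0.71 in replicates 3 and 4, so the small mean gap averages opposite signs. PB1 alone overlapped CTR, with a log2 difference of 0.01 ± 0.15 (SE, limma adjusted p = 0.952). LPS + PB1 exceeded PB1 by 1.51 ± 0.56 (limma adjusted p = 0.0457), a call that was lost with paired libraries averaged (adjusted p = 0.193) and without any 1 library other than LPS + PB1 replicates 1 and 2 (adjusted p 0.0599 to 0.107).

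SLC30A1 (chr3:21882587-21890980) exports zinc across the plasma membrane. It reached 144, 163, 179 and 199 in LPS + PB1 and 133, 134, 155 and 177 in LPS, against 92.1, 91.3, 82.5 and 65.5 in PB1 and 85.6, 90.4, 79.8 and 86.6 in CTR. All 8 libraries with LPS lay above all 8 without it, and the pairs gave nearly equal values of LPS + PB1 minus LPS, 0.20 and 0.19. The difference between PB1 and CTR was -0.06 ± 0.11 (limma adjusted p = 0.688). LPS + PB1 exceeded PB1 by 1.05 ± 0.13 (limma adjusted p = 0.000106), and the call held with the pairs averaged.

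HMOX1 (chr1:52145778-52151916), heme oxygenase, breaks heme into biliverdin, iron and carbon monoxide. Its level was 255, 289.8, 552 and 551 in LPS + PB1, 334, 353, 420.2 and 381 in LPS, 228, 237, 219 and 236 in PB1 and 132, 124, 279 and 314 in CTR. The CTR group itself was split, with replicates 3 and 4 above every PB1 library and replicates 1 and 2 below every one. PB1 minus CTR was therefore 0.86 in replicates 1 and 2 and -0.38 in replicates 3 and 4, with 0.24 ± 0.26 over all (limma adjusted p = 0.484). LPS + PB1 against PB1 gave 0.75 ± 0.24 (limma adjusted p = 0.0245), and the call was lost with pairs averaged (adjusted p = 0.150) and without LPS + PB1 replicate 3 or 4 or PB1 replicate 1, 2 or 3 (adjusted p 0.0508 to 0.0599).

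A list of 10 metal and heme genes, put together after these values had been seen, had 7 named rows. Of the 5 tested, 3 are the members, which were chosen by their rise, so the counts are a description. In LPS against CTR 5 of 5 were called higher, beside 9.81% of all transcripts, in LPS + PB1 against CTR 2 of 5, beside 8.94%, and in PB1 against CTR 1 of 5, SLC40A1, beside 10.5%. The 2 called in LPS + PB1 against CTR were SLC30A1 and SLC40A1, while the members MT3 and HMOX1 were not called there. FTH1, the ferritin heavy chain that stores iron, averaged 5967 in LPS + PB1, 7236 in LPS, 3907 in PB1 and 3714 in CTR. SLC40A1, the iron exporter ferroportin, averaged 15.1, 103, 6.52 and 4.02 in the same order and was called lower in LPS + PB1 against LPS, so it is no member. SAT1 (chr1:118428884-118431715) acetylates spermidine and spermine, the step that commits polyamines to breakdown. Its level was 50.2, 49.02, 202 and 218 in LPS + PB1, 73.96, 71.1, 136 and 139.7 in LPS, 53.4, 45.95, 47.2 and 45.4 in PB1 and 36.4, 39.6, 34.7 and 41.2 in CTR. In replicates 1 and 2 the LPS + PB1 libraries lay within the PB1 range and below LPS, and in replicates 3 and 4 they lay above every other library. Their LPS + PB1 minus LPS was -0.55 and 0.61, 2 changes of opposite sign behind a mean of 0.03. PB1 exceeded CTR in all libraries by 0.34 ± 0.09 (limma adjusted p = 0.0108), below the 1.5-fold limit, and LPS + PB1 against PB1 gave 1.09 ± 0.47 (limma adjusted p = 0.0806). SMS and OAZ2, other polyamine genes with a row, were called in neither LPS contrast.

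**Figure D2:**
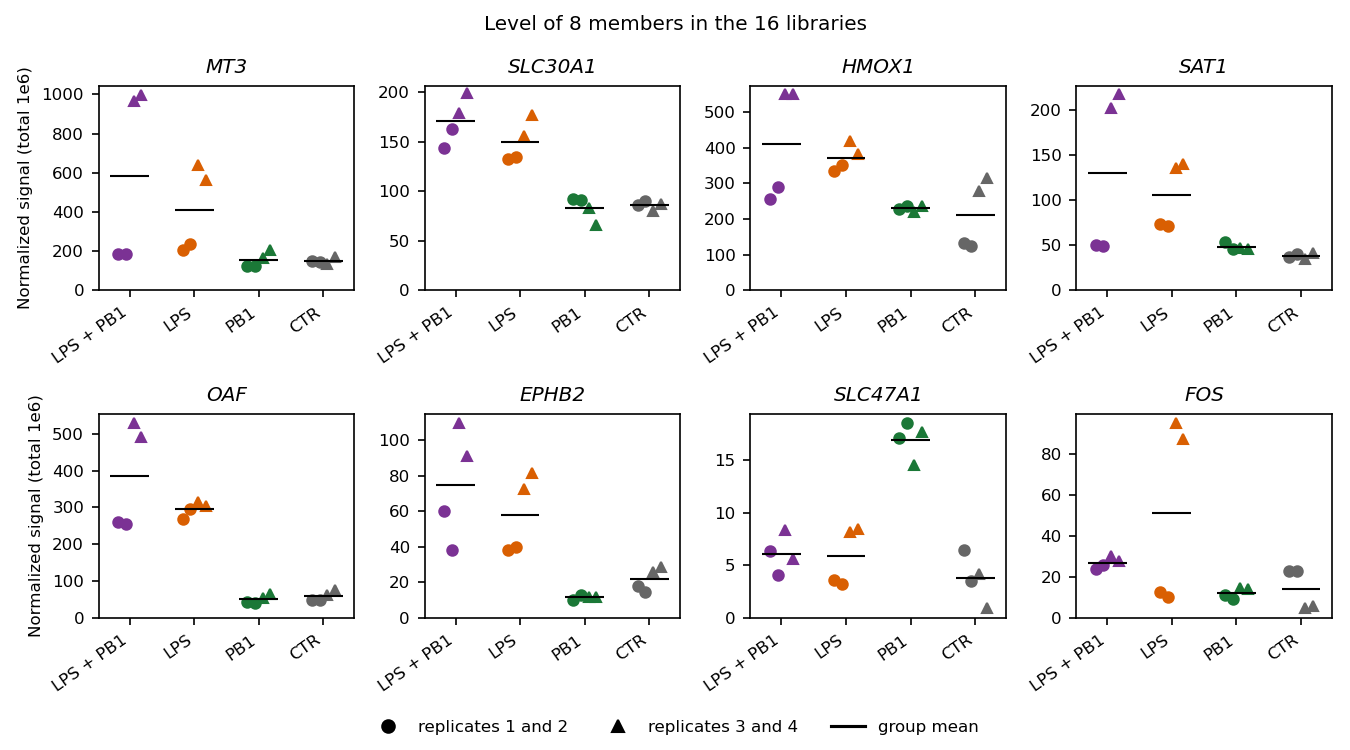
Normalized signal of 8 members, with library totals set to 1000000, in every library, by group, with circles for replicates 1 and 2, triangles for replicates 3 and 4 and a line at the group mean (linear axes from 0). SLC30A1 separates all libraries with LPS from all without it, MT3 and SAT1 are high in replicates 3 and 4 of the LPS groups, SLC47A1 is highest in PB1, and FOS is highest in LPS replicates 3 and 4.

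EPHB2, FZD5, NINJ1 and RAC2 act at the cell surface or just beneath it. EPHB2 (chr21:5938662-6036745) is a receptor tyrosine kinase for ephrin-B ligands that guides cell contact and repulsion. Its level was 60.1, 38.1, 109.9 and 91.2 in LPS + PB1, 38.2, 39.7, 72.4 and 81.6 in LPS, 10.2, 13.1, 11.8 and 11.95 in PB1 and 17.8, 14.4, 25.8 and 28.5 in CTR. Every PB1 library lay below every CTR library, and every library with LPS lay above them all. EPHB2 fell in PB1 by 0.83 on the log2 scale (SE 0.20, limma adjusted p = 0.00496), the only fall called among members with a symbol, with -0.47 in replicates 1 and 2 and -1.19 in replicates 3 and 4. It rose in LPS + PB1 over PB1 by 2.56 ± 0.28 (limma adjusted p = 3.98e-05). EPHB2 was the 1 named member that the choice would have kept within each pair of replicates taken alone. It was lost, however, in at least 1 of the choices that left a replicate number out of every group. Of the other Eph receptors with a row, EPHB1 averaged 5.05 in LPS + PB1, 22.4 in LPS, 2.22 in PB1 and 10.9 in CTR. In the same order EPHA1 averaged 103, 77.4, 92.1 and 93.1, and EPHA3, with at most 27 reads in a library, 2.34, 5.75, 0.195 and 0.630.

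FZD5 (chr7:11747113-11751080) is a Frizzled receptor for Wnt proteins. It stood at 22.4, 20.2, 47.5 and 40.7 in LPS + PB1, 23.9, 24.4, 52.9 and 48.5 in LPS, 18.9, 22.4, 21.3 and 20.05 in PB1 and 17.6, 13.97, 15.6 and 18.8 in CTR. LPS + PB1 lay slightly below LPS in both pairs, by -0.18 and -0.20, while both LPS groups were about the PB1 level in replicates 1 and 2. PB1 minus CTR was 0.33 ± 0.12 (limma adjusted p = 0.0480), under the 1.5-fold limit, and LPS + PB1 minus PB1 was 0.57 ± 0.26 (limma adjusted p = 0.0940). Among related receptors, FZD2 averaged 56.3, 79.7, 80.2 and 128 and FZD7 averaged 168, 472, 163 and 237 in LPS + PB1, LPS, PB1 and CTR. In the same order FZD6 averaged 124, 142, 81.7 and 108, and FZD9 and FZD10 had at most 23 reads in any library.

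NINJ1 (chr12:6793820-6811450) encodes ninjurin, an adhesion protein that ruptures the plasma membrane of dying mouse macrophages. Its level was 49.5, 45.5, 129 and 104 in LPS + PB1 and 47.1, 53.8, 89.6 and 84.5 in LPS, against 25.6, 25.8, 33.4 and 34.4 in PB1 and 20.4, 17.1, 26.5 and 26.96 in CTR. All libraries with LPS exceeded all without. PB1 minus CTR was 0.40 ± 0.16 (limma adjusted p = 0.0687), and LPS + PB1 minus PB1 was 1.33 ± 0.32 (limma adjusted p = 0.00584), which missed the limit with pairs averaged (adjusted p = 0.072). RAC2 (chr1:51454214-51463262) is a small GTPase of blood cells that supports migration and the phagocyte oxidase. It stood at 99.98, 105, 136 and 125 in LPS + PB1, 80.02, 84.2, 114 and 118 in LPS, 86.1, 80.2, 77.6 and 92.1 in PB1 and 65.4, 58.4, 39.8 and 45.9 in CTR. Every CTR library was below every treated library. RAC2 rose in PB1 by 0.71 ± 0.14 (limma adjusted p = 0.00133), just past the 1.5-fold limit, and without CTR replicate 3 the difference was 0.58 and no longer called.

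Gene regulators among the members were FOS, MSX1, ZFP36L2 and HSBP1L1. FOS (chr5:37729411-37732328), a subunit of the AP-1 transcription factor and an early gene of LPS signalling, was uneven between the pairs of replicates. Its level was 23.8, 26.003, 30.4 and 27.9 in LPS + PB1, 12.5, 10.03, 95.3 and 87.3 in LPS, 11.3, 9.05, 14.6 and 14.1 in PB1 and 22.7, 23.02, 4.92 and 5.83 in CTR. Replicates 1 and 2 of LPS lay below those of CTR, and replicates 3 and 4 lay far above them. LPS minus CTR was -1.03 in replicates 1 and 2 and 4.09 in replicates 3 and 4, and LPS + PB1 minus LPS was 1.15 and -1.65, so FOS met the limits through group means that no pair resembles. PB1 minus CTR was 0.12 ± 0.46 (limma adjusted p = 0.851), a mean of opposite values, -1.18 in replicates 1 and 2 and 1.42 in replicates 3 and 4. Each was called in a limma fit of those libraries alone (adjusted p = 5.32e-06 and 3.59e-05). Such a fit holds 2 libraries a group from 1 pair, so its p-value measures the spread within a pair and not between pairs. LPS + PB1, uniform over its 4 libraries, exceeded PB1 by 1.16 ± 0.17 (limma adjusted p = 0.000272), and the adjusted p was 0.153 in limma when all 16 libraries shared 1 estimate of the spread. Its AP-1 partner JUN averaged 377 in LPS + PB1, 358 in LPS, 759 in PB1 and 556 in CTR.

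MSX1 (chr4:78333015-78335519), a homeobox repressor known from limb and craniofacial development, had the steadiest levels: 83.5, 87.3, 92.4 and 89.96 in LPS + PB1, 64.8, 66.6, 85.5 and 83.1 in LPS, 75.2, 75.9, 74.6 and 78.7 in PB1 and 43.4, 40.4, 37.2 and 39.8 in CTR. CTR lay below all other libraries, LPS spanned the PB1 range, and LPS + PB1 lay above PB1. MSX1 rose in PB1 by 0.92 ± 0.08 (limma adjusted p = 1.11e-06), and LPS + PB1 was higher than PB1 by only 0.21 ± 0.07 (limma adjusted p = 0.0308), under the fold limit. ZFP36L2 (chr3:24667481-24671034) binds AU-rich elements and speeds the decay of mRNAs such as those of cytokines. It was the most abundant named member, at 387, 378, 607 and 611 in LPS + PB1, 476, 512, 636 and 640.0 in LPS, 600.4, 598, 524 and 561 in PB1 and 270.1, 261, 298 and 320.2 in CTR. All 12 treated libraries exceeded the 4 CTR libraries, and PB1 alone sat between the replicate pairs of LPS + PB1. It rose in PB1 by 0.99 ± 0.08 (limma adjusted p = 6.85e-07).

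HSBP1L1 (chr2:55908701-55911658) resembles the protein that binds heat shock factor 1. Its level was 32.2, 25.3, 15.2 and 16.997 in LPS + PB1, 27.8, 28.7, 21.5 and 23.8 in LPS, 28.5, 31.3, 30.1 and 23.7 in PB1 and 9.70, 10.9, 7.92 and 8.13 in CTR. CTR was again below all treated libraries, but here replicates 3 and 4 were the lower pair of each LPS group. HSBP1L1 rose in PB1 by 1.64 ± 0.14 (limma adjusted p = 1.66e-06), a 3.10-fold change, and LPS + PB1 minus PB1 was -0.40 ± 0.23 (limma adjusted p = 0.170).

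The last group with symbols comprises a secreted protein and metabolic genes. OAF (chr24:3888852-3913239), a secreted protein named after a Drosophila gene, showed the largest mean difference of LPS and LPS + PB1 from CTR among members with a symbol. Its level was 261, 255, 530.3 and 491 in LPS + PB1 and 268, 296, 316 and 305 in LPS, against 43.8, 40.3, 53.99 and 64.6 in PB1 and 49.4, 49.1, 62.7 and 75.4 in CTR. The groups with and without LPS were far apart in every library, while LPS + PB1 minus LPS was -0.13 in replicates 1 and 2 and 0.72 in replicates 3 and 4. PB1 minus CTR was -0.22 ± 0.17 (limma adjusted p = 0.308), and LPS + PB1 exceeded PB1 by 2.86 ± 0.26 (limma adjusted p = 9.15e-06). With PB1 near CTR, the choice favours this rise.

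SLC47A1 (chr19:7344944-7352713), a proton-coupled exporter of organic cations, gave the opposite picture. Its level was low in the LPS groups, 6.35, 4.11, 8.40 and 5.56 in LPS + PB1 and 3.59, 3.22, 8.20 and 8.48 in LPS, highest in PB1 at 17.1, 18.6, 14.6 and 17.7, and 6.47, 3.53, 4.17 and 0.961 in CTR. The LPS groups overlapped CTR, whose last library held 3 reads of this transcript, which lowers its mean on the log2 scale. SLC47A1 met the level limit only through the PB1 libraries, so its PB1 level had to lie above the others and is given without a test. PB1 minus CTR was 2.45 and LPS + PB1 minus PB1 was -1.52. GMPR2 (chr2:61256654-61294523) reduces guanosine monophosphate to inosine monophosphate, and stood at 16.5, 18.3, 15.8 and 13.5 in LPS + PB1, 13.98, 14.3, 18.4 and 20.1 in LPS, 11.96, 16.95, 18.5 and 17.2 in PB1 and 7.16, 6.86, 10.1 and 6.85 in CTR. Every treated library exceeded every CTR library. GMPR2 rose in PB1 by 1.06 ± 0.18 (limma adjusted p = 0.000474), and its difference between LPS + PB1 and PB1 was 0.00 ± 0.17.

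SLC25A4 (chr4:38930868-38933690), an adenine nucleotide translocator, exchanges ADP and ATP across the inner mitochondrial membrane. It stood at 22.7, 28.5, 48.5 and 36.4 in LPS + PB1, 24.4, 25.6, 33.7 and 37.5 in LPS, 25.3, 27.4, 31.02 and 28.7 in PB1 and 15.98, 16.6, 20.8 and 16.8 in CTR. CTR lay below all treated libraries, and SLC25A4 rose in PB1 by 0.68 ± 0.12 (limma adjusted p = 0.000487). Its paralog SLC25A6 averaged 165 in LPS + PB1, 198 in LPS, 143 in PB1 and 160 in CTR. The sources do not say how reads of any near-identical stretches of these paralogs were counted.

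The limits on differences did not use PB1 against CTR, but the contrast shares the CTR libraries with them, so a member that was low in CTR by chance leans upward here. The level limit did use PB1: 5 members, SLC47A1 and 4 without a symbol, reached it in PB1 alone, and all 5 were called higher in PB1, as the limit favours. Of the 54 members, all with enough reads to be tested, 16 (29.6%) were called higher in PB1, beside 10.5% of 4485 transcripts, and 13 (24.1%) were called lower, beside 10.4%. The remaining 25 were not called. Among the 49 members that reached the level limit in another group, 11 (22.4%) were called higher and 13 (26.5%) lower. The groups did not overlap for 21 members higher in PB1, beside 21.5% of all transcripts, and for 14 lower, beside 20.9%. The median log2 difference was 0.11 over members and 0.01 over all transcripts, with members spread from -4.72 to 4.63. The count of groups that do not overlap and this median include the 5 that reached the level limit in PB1 alone. The members called higher that have a symbol were HSBP1L1, GMPR2, ZFP36L2, MSX1, RAC2 and SLC25A4. SLC47A1 was called as well, but it reached the level limit in PB1 alone, so its rise is no test result. With the pairs averaged, the same 29 members were called, those 5 included. In these libraries the summed signal of the mesenchymal list was also lower in PB1, 92460 to 97860, against 129900 to 146400 in CTR, with 8 of 17 tested genes called lower and 3 higher, and its part in the members' values was not tested.

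**Figure D3:**
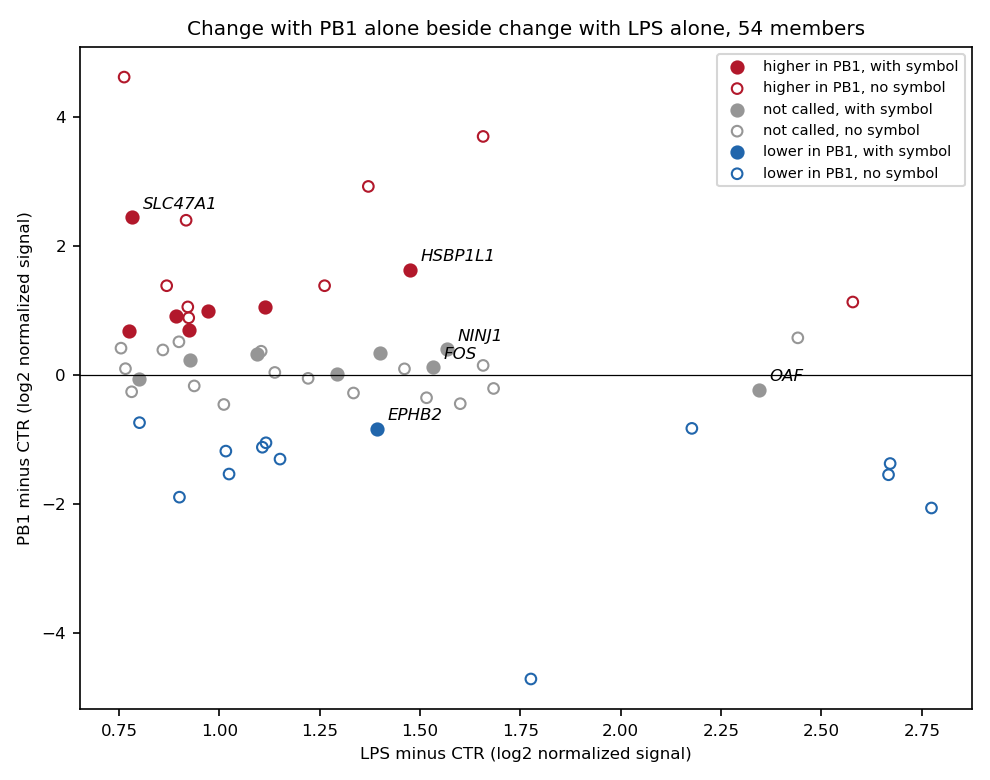
Each of the 54 members by its LPS minus CTR difference (horizontal) and its PB1 minus CTR difference (vertical), both in log2 normalized signal, filled where a gene symbol is known and coloured by the limma call of PB1 against CTR. Members lie on both sides of 0, from 4.63 to -4.72, and the called ones are 16 higher and 13 lower. Of the 16, 5 reached the level limit in PB1 alone, which favours that direction, and the member at 4.63 is among them. Of the other 49 members, 11 were called higher and 13 lower. The member at -4.72 had 1 to 6 reads in the PB1 libraries.

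LPS + PB1 against PB1 shares the LPS + PB1 libraries with the choice, which held LPS + PB1 at least 0.8 above CTR. A member that PB1 alone left near CTR or below it therefore had to stand higher in LPS + PB1 than in PB1. The shares called higher below are favoured by the choice and are a description. The level limit bears on this contrast as well. Here 33 members (61.1%) were called higher, beside 14.5% of 4518 transcripts, and 5 (9.26%) lower, beside 14.9%. The 5 called lower are the 5 that reached the level limit in PB1 alone, so the limit fixed that direction, and 0 of the other 49 were called lower. A further 6 members reached it in LPS groups alone, of which 4 were called higher, and among the 43 in neither class 29 (67.4%) were called higher. The groups did not overlap for 33 members higher in LPS + PB1, beside 23.5% of all transcripts, and for 5 lower, beside 23.4%. The median difference was 1.19 over members and -0.01 over all transcripts. The 2 contrasts share the PB1 libraries, so their calls are given side by side only. With pairs averaged, 30 of the 38 calls remained, and the named calls lost were MT3, NINJ1 and HMOX1. The mesenchymal list moved in this contrast too, with 10 of 17 tested genes called higher and 4 lower and a summed signal of 102800 to 139900 in LPS + PB1, against 92460 to 97860 in PB1, and its part in the members' values was not tested.

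The 38 members without a symbol covered a wider range than the named ones. In PB1 against CTR, 9 (23.7%) were called higher, beside 10.5% of all transcripts, 12 (31.6%) lower, beside 10.4%, and 17 were not called. In LPS + PB1 against PB1, where the choice favours a rise, 26 (68.4%) were called higher, beside 14.5%, and 4 (10.5%) lower, beside 14.9%. The 4 called lower reached the level limit in PB1 alone and are among the 9 called higher in PB1, as the limit favours. A pair of them, chosen after their values were seen and so given without a test, shows a level below CTR in PB1 and a level above it. XM_046920824.1 was at 509.7, 503, 523 and 555 in LPS + PB1 and 308, 318, 625 and 602 in LPS, against 26.2, 30.6, 22.2 and 27.95 in PB1 and 93.7, 102, 47.1 and 49.7 in CTR. Every PB1 library lay below every CTR library, with a mean difference of -1.37 on the log2 scale, and LPS + PB1 minus PB1 was 4.30. XM_040658513.2 was at 6.35, 4.63, 9.08 and 13.1 in LPS + PB1 and 6.01, 6.27, 9.30 and 7.18 in LPS, against 95.2, 105, 106 and 106 in PB1 and 4.36, 2.81, 5.17 and 4.80 in CTR. It was kept by its PB1 level alone, with PB1 minus CTR at 4.63, while LPS + PB1 stood near LPS. The lowest PB1 value of all members rested on 1 to 6 reads a library.

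The choice was made on group means, so the following counts over pairs of replicates are a description. LPS + PB1 minus LPS lay within 0.4 of 0 in replicates 1 and 2 for 43 members and in replicates 3 and 4 for 33, and in both for 26 (48.1%), where 54.5% of 4546 transcripts did so. The sign differed between the pairs in 33 of 54 members and in 913 of the 4546 transcripts, where a mean held near 0 favours opposite signs among members. LPS minus CTR, held at 0.8 or more by the choice, was above 0 in both pairs for 51 members, with FOS and SLC47A1 as the named exceptions, and LPS + PB1 minus CTR for 53. Both rises reached 0.8 less often in each pair, for 28 and 25 members. In the LPS + PB1 libraries, replicates 3 and 4 both exceeded replicates 1 and 2 for 36 members and both lay below them for 12. The counts were 39 and 6 in LPS, 17 and 6 in PB1, and 25 and 14 in CTR, and 19, 8, 0 and 5 members differed by at least 1 on the log2 scale between the pairs in LPS + PB1, LPS, PB1 and CTR. What the pairs stand for, and their part in the members' levels, was not tested.

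**Figure D4:**
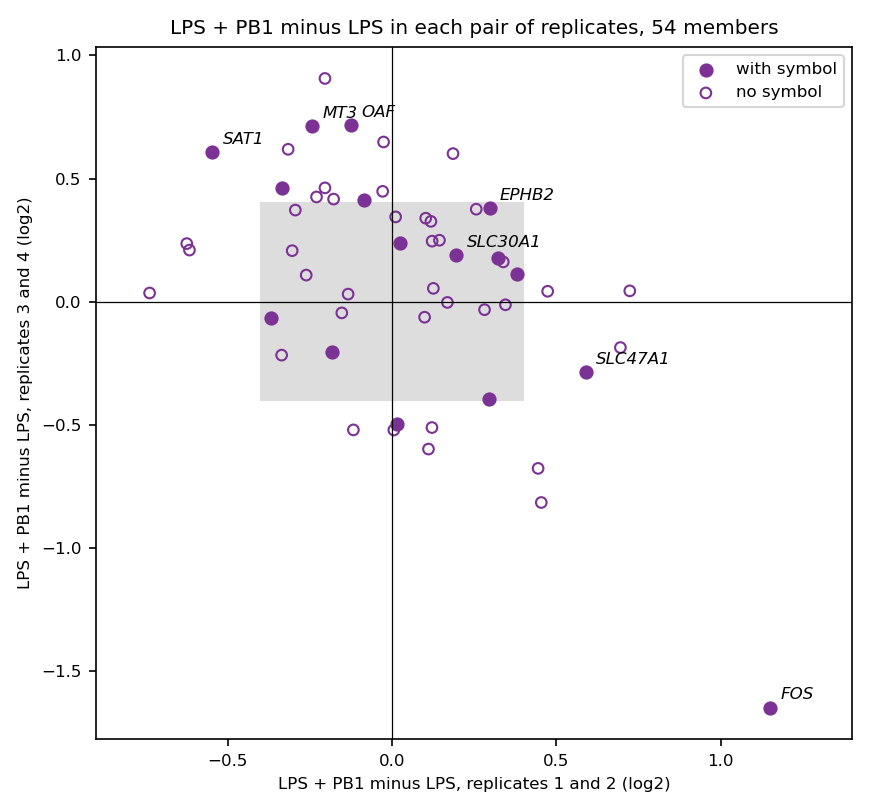
LPS + PB1 minus LPS of each of the 54 members in replicates 1 and 2 (horizontal) and in replicates 3 and 4 (vertical), in log2 normalized signal, with filled points for members with a symbol and a grey square where both lie within 0.4 of 0. The square holds 26 of 54 members, and FOS lies farthest from it at 1.15 and -1.65.

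The lists of LPS and interferon response genes had few named rows, 17 of 88 and 5 of 52, and FOS was the only one that was a member. Of 9 LPS-response genes tested in LPS against CTR, 1 was called higher (TLR3, the receptor for double-stranded RNA) and 1 lower (JUN). Among all transcripts, 9.81% were called higher and 6.89% lower. Counts over so few genes are a description only. In PB1 against CTR 3 of 10 were called higher, beside 10.5% of all transcripts, and 1 lower, beside 10.4%. The 1 called lower was NFKBIZ, a nuclear regulator of NF-κB target genes. IL6 averaged 345 in LPS + PB1, 270.2 in LPS, 308 in PB1 and 269.8 in CTR and was not called in LPS, LPS + PB1 or PB1 against CTR. LPS + PB1 exceeded CTR by 0.36 ± 0.12 (limma adjusted p = 0.043) and LPS by 0.35 ± 0.10 (limma adjusted p = 0.028). Both differences lay under the 1.5-fold limit. IL12B, CCL4, CCL5 and NOS2, textbook targets of LPS in macrophages, had at most 2 reads in any library. Of 4 interferon-response genes tested in LPS against CTR, 2 were called higher, beside 9.81% of all transcripts. They were IFIH1, a sensor of viral RNA, and TRIM25, a ubiquitin ligase. Neither is a member, and IFIH1 averaged 4.08 in LPS + PB1, 23.0 in LPS, 12.0 in PB1 and 10.8 in CTR.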

How the data were processed

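Total RNA of HD11 cells was sequenced as single reads on a HiSeq instrument from TruSeq libraries. Per the study's methods and the labels' processing notes, reads were mapped to GRCg7b with HISAT2 and counted with HTSeq, per gene in the methods text, while the table lists transcripts. The authors deposited 1 table of 6492 transcripts in 16 libraries, and its values are a scaled signal, not counts: in each library at least 99.83% of values were whole steps of 2.97 to 5.53 after rounding down, with 1 read added. The deposited totals (12543666 to 23107935) therefore do not measure depth, and the reads behind the values were recovered for filtering and scaling only. How the step was set and whether counting used strand are not given in the sources used here. Intervals from reads would cover counting error only.

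Members were found on column sums scaled to 1e+06. For tests, signal was normalized by a trimmed mean of M-values (own code) and put on the log2 scale, transcripts under about 10 reads in 4 libraries or 15 in all were left out, and limma 3.58.1 (R 4.3.3, empirical Bayes with a trend, only the groups compared) was run with Benjamini-Hochberg adjustment over all transcripts. Calls needed adjusted p of at most 0.05 and 1.5-fold. On simulated PB1 and CTR libraries, 200 of 200 well-covered transcripts given a change were called, with 1 false call, among 4482 tested. The simulated libraries were independent and lacked the replicate pairs seen here. The simulation therefore checks the code and gives no error rate for these data. Symbols came from RefSeq's gene table for GRCg7b, which matched 1697 of 1702 curated and 0 of 4790 predicted accessions. Named in full were the members with a symbol that ranked highest by change from CTR (10), level (10), equality of the LPS groups (5) or PB1 call (5 each way), which took in all but FZD5, added so that the 16 are complete. The members and gene lists were chosen with earlier results of these data known. Alternatives were other scalings, no low-value filter, a pseudocount of 1, a replicate block, libraries left out and replicate pairs.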

Additional observations from a re-analysis of the deposited data

Results flagged for a closer look

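Among 64 groups of 4 libraries (16 members with a symbol in 4 groups), 2 held a library far from the other 3. Chance gives about 1 in 20 groups where libraries are independent. Many of these libraries lay in replicate pairs, so that rate is no guide here. GMPR2 had its highest CTR value in replicate 3, at a normalized signal of 10.1, a gap to the next library of 0.906 of the group's range. SLC25A4 also had its highest CTR value in replicate 3, at 20.8, with a gap of 0.832 of the range.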

How the results depend on the processing

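With no limit on the fold change, 1961 transcripts were called in PB1 against CTR in place of 936, and 2233 in LPS + PB1 against PB1 in place of 1326. The choice of members kept 33 transcripts with replicates 1 and 2 alone (21 of the 54), 126 with replicates 3 and 4 alone (32 of the 54) and 25 with limits of 1 and 0.3. Without 1 replicate number in every group it kept 36 to 73, and under the trimmed-mean scaling, median-ratio scaling and reads with 0.5 added 46, 47 and 53, all among the 54. In total 22 members were kept without each replicate number in turn, and 10 in both pairs. The 6 with a symbol among the 22 were GMPR2, HMOX1, HSBP1L1, MSX1, NINJ1 and SAT1. Same-numbered libraries of PB1 and CTR correlated at 0.0192 to 0.274 in their deviations from group means, 3 of 4 above 0.1 and 2 of 4 best with their own number, and those of LPS + PB1 and PB1 at -0.0879 to 0.0364, 0 of 4 best, so the numbers were not taken as pairs. Between PB1 and CTR, all 8 correlations of libraries from the same set (replicates 1 and 2, or 3 and 4) exceeded 0 and all 8 of libraries from different sets lay below it, and between LPS + PB1 and PB1 7 of 8 and 4 of 8 were above 0. Deviations from a group mean sum to 0 over its 4 libraries, so these signs depend on one another and are a description. A replicate block gave 944 calls in PB1 against CTR, with 16 members higher and 13 lower, and 1318 calls in LPS + PB1 against PB1, with 35 and 5.

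Of 256 alternative values of PB1 minus CTR for the 16 named members, 240 kept direction and call. Fits with no low-value filter, a replicate block, all 16 libraries or averaged pairs leave the difference unchanged, so only the call could move. This holds for LPS + PB1 minus PB1 below as well. SLC47A1, given without a test, is counted in both. Near 0, FOS turned to -1.18 with replicates 1 and 2 alone and was 1.42 with replicates 3 and 4 alone. Both were called, against the spread within a pair only. MT3 turned to -0.26 and SLC30A1 to 0.059 with replicates 1 and 2 alone, and HMOX1 turned to -0.38 with replicates 3 and 4 alone. With 1 library left out, FOS ranged from -0.27 (without CTR replicate 3) to 0.48, MT3 from -0.13 to 0.12 and SLC30A1 from -0.11 to 0.0497. EPHB2 (-0.47) and RAC2 (0.43) lost their calls with replicates 1 and 2 alone. For LPS + PB1 minus PB1, 220 of 256 kept both. GMPR2, at 0.00, turned to -0.00083 and -0.00073 with median-ratio scaling and a pseudocount of 1, to between -0.14 and 0.079 without 1 library and to -0.29 with replicates 3 and 4 alone, where ZFP36L2 turned to 0.17, and SLC25A4 turned to -0.051 with replicates 1 and 2 alone. The cause of these changes was not tested. Tests that model counts were not run, because the table holds a scaled signal, and promoter motifs were not examined.

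Depth limits SLC47A1, with 3 reads in 1 CTR library. With pairs averaged, LPS + PB1 against PB1 gave 1034 calls and 25 members higher. The equality of LPS + PB1 and LPS rests on means over pairs that differ.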
